A study of Rattus norvegicus with 6 samples.

Results

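The genes described here encode the channels, pumps, exchangers and store proteins that move calcium across the membranes of a cell, together with the calcium-dependent kinase CaMKII. They were taken from the count table by symbol alone: the Cacna, Cacnb, Cacng and Cacna2d subunits of voltage-gated calcium channels, the Trpc, Trpm and Trpv channels, Ryr1 to Ryr3, Itpr1 to Itpr3, Orai1 to Orai3, Stim1 and Stim2, the Atp2a, Atp2b and Atp2c pumps, Casq1 and Casq2, Slc8a1 to Slc8a3, the Camk2 genes, Pln, Sln, Piezo1, Piezo2, Pkd1 and Pkd2. The rule found 54 of the 14475 genes of the table. One of them, Trpc4ap, matches the TRP pattern by its name, but encodes a protein associated with a TRP channel and not a channel.

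Cultures of vascular smooth muscle (VSM) cells were grown out of soleus feed arteries (SFA), which supply the soleus muscle, with 3 libraries from young (4 months) and 3 from old (24 months) male Fischer 344 rats. No transgene or treatment is named for either group, and the RNA came from cells kept in medium with fetal bovine serum and not from the artery wall, so that the age of the donor rat was the factor compared. By the study's account, each group was of 3 rats. Polyadenylated RNA of each culture gave a stranded library, with 44235674 to 59700887 counts on genes per library. The comparison asked which of these genes differed with age, with young VSM cells as the reference. Levels are given as CPM, counts scaled to a common library total after TMM normalization, which are not scaled to transcript length, so that levels of different genes are not compared.

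In VSM cells calcium enters through voltage-gated and store-operated channels and through TRP and other cation channels, and it leaves the sarcoplasmic reticulum through IP3 and ryanodine receptors. Calcium bound to calmodulin activates myosin light chain kinase and starts contraction. SERCA pumps refill the store, calsequestrins buffer calcium inside it, and plasma membrane pumps and sodium-calcium exchangers remove calcium from the cell. Pressure-induced constriction of small arteries depends on depolarization and calcium entry, and TRP, polycystin and Piezo channels are among its studied sensors.

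A search of the RefSeq gene names of the rat found 84 protein-coding genes that match the rule, and 30 of them were not in the table by symbol. Among these 30 were Ryr2, Ryr3, Trpc6, Cacna1s, Atp2a1, Pln and Sln, which are not analysed here. The table also held 1518 rows without a symbol, which were not searched for these genes. Marker and pathway genes below were matched by symbol in the same way. Every gene of the table reached 10 counts in 3 or more libraries, so a gene with fewer counts would not be listed. The study's methods name a RefSeq annotation while the table has Ensembl identifiers, so which annotation was counted, and whether it holds the absent genes, is unclear. Of the 54 genes, 47 had at least 10 counts in all 6 libraries, 5 in 5 libraries and 2 in 4 libraries, and 8 averaged under 1 CPM in both age groups.

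edgeR's quasi-likelihood test, with Benjamini-Hochberg adjustment over all 14475 genes, called 0 of the 54 genes (a log2 fold change of 1 or more in either direction with an adjusted p under 0.05), compared with 0.00691% of all genes. The DESeq2 Wald test, which is the test of the study, called 3 of the 54 genes as lower in old VSM cells, Casq2, Itpr1 and Slc8a1 (5.56%, compared with 3.38% of all genes tested), and 1 gene as higher, Itpr3 (1.85%, compared with 2.30% of all genes tested). At an unadjusted edgeR p under 0.05, 10 genes were lower (18.5%, compared with 11.5% of all genes) and 8 were higher (14.8%, compared with 11.2%). The 3 old libraries all lay below the 3 young libraries for 10 genes (18.5%, compared with 14.7% of all genes) and above them for 7 genes (compared with 14.5%). The median log2 fold change of the 54 genes was 0.03, and that of all genes was 0.02, with 26 of the 54 lower and 28 higher. Since these shares lie near those of the whole table, the results are given gene by gene. In bulk RNA of a culture, fewer cells of a type and less RNA per cell cannot be told apart. With 3 libraries in each age group, the smallest two-sided p of an exact permutation test is 0.10, and adjusted p values therefore come from models fitted across all genes.

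**Figure D1:**
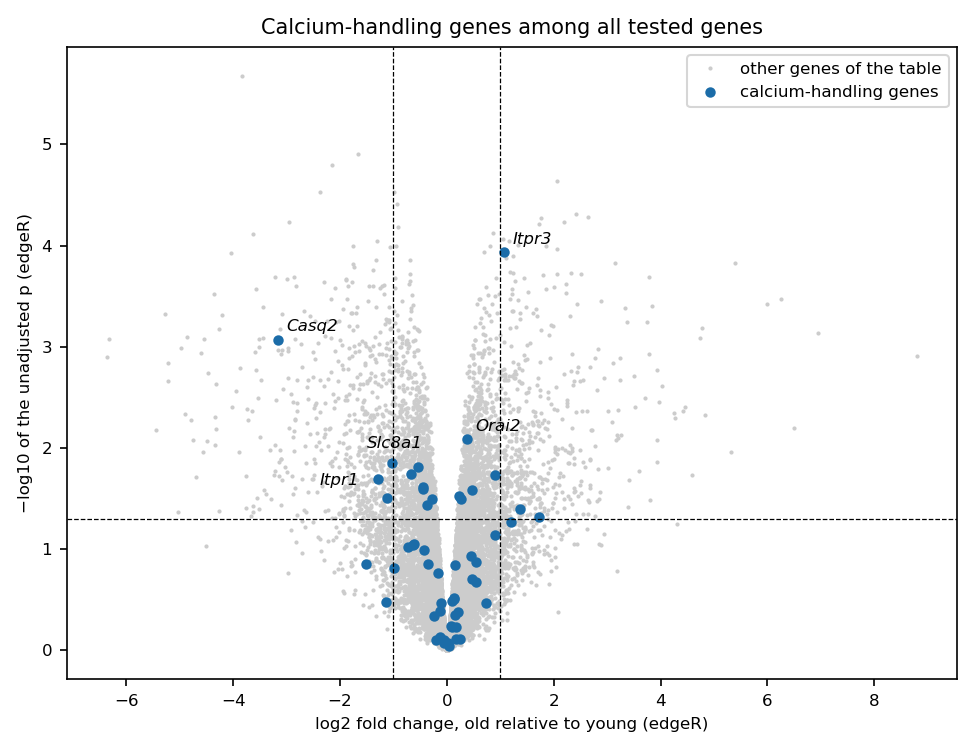
Volcano plot of all 14475 genes (gray) with the 54 calcium-handling genes in blue. The horizontal axis is the edgeR log2 fold change of old relative to young and the vertical axis the −log10 of the unadjusted edgeR p, with dashed lines at a p of 0.05 and at fold changes of -1 and 1. Casq2 and Itpr3 stand apart from the other blue points, at log2 fold changes of -3.15 and 1.06.

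**Figure D2:**
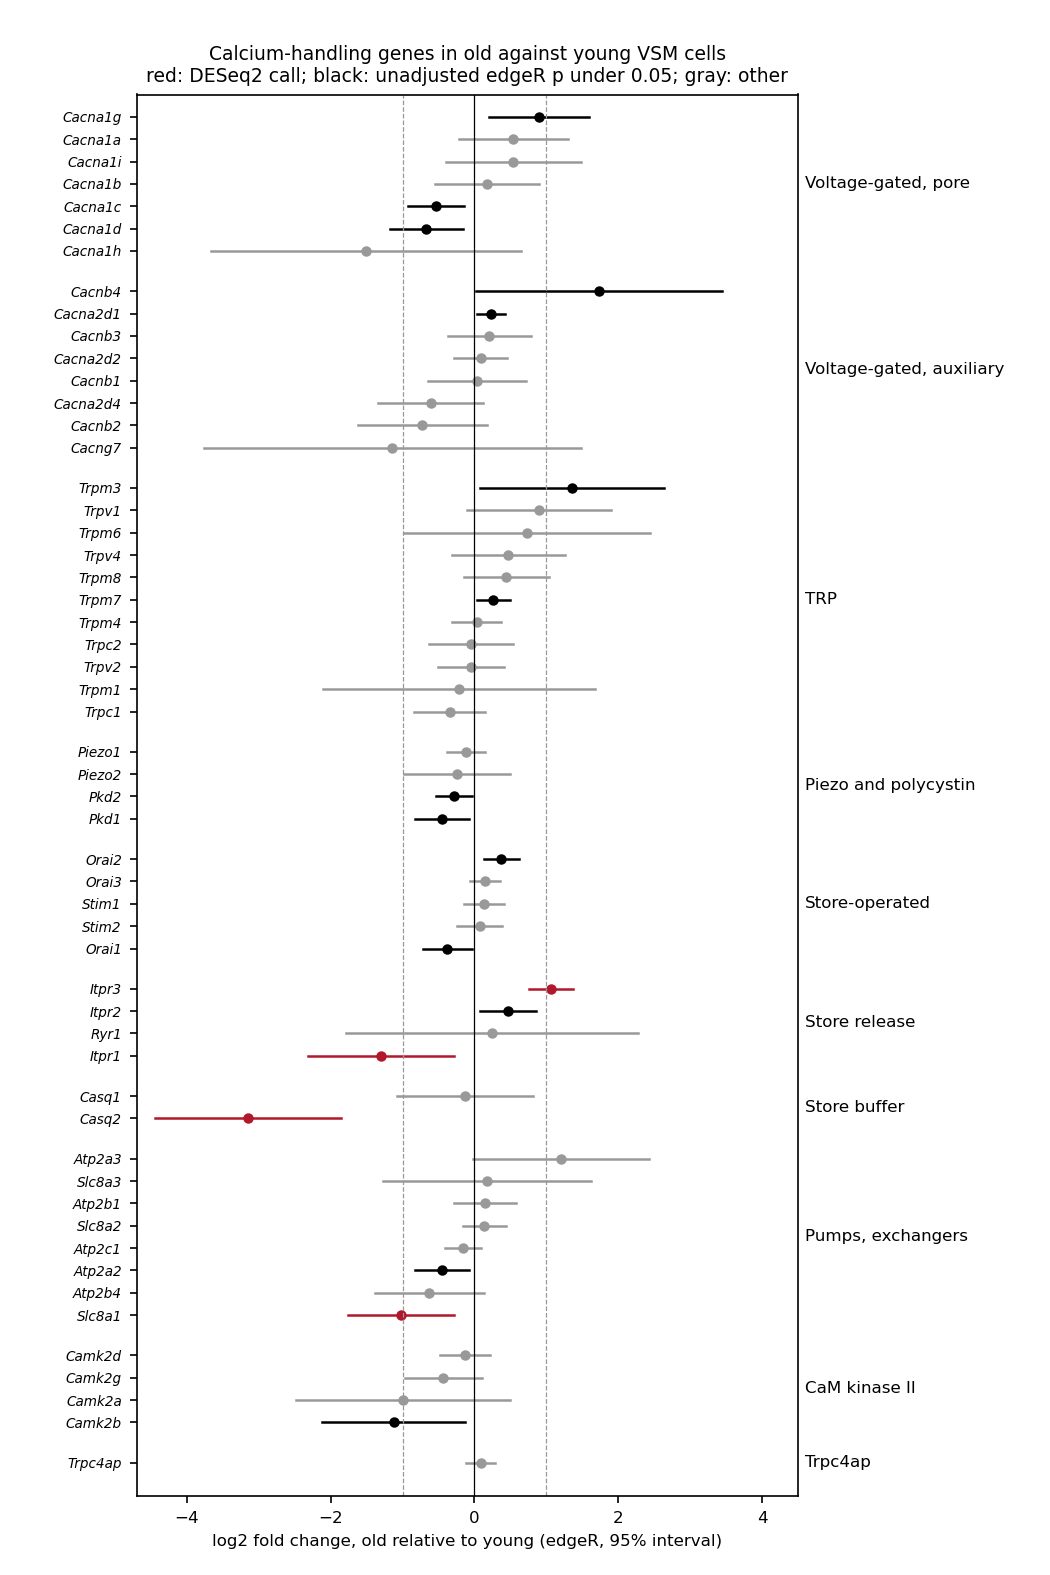
Log2 fold change of old relative to young for each of the 54 genes, with its 95% interval from edgeR, grouped by role. Points in red were called by DESeq2 (Casq2, Itpr1, Slc8a1 and Itpr3), points in black had an unadjusted edgeR p under 0.05 and gray points did not, and most of the widest intervals belong to genes near 1 CPM or below.

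The IP3 receptors, which release calcium from the store after IP3 is made by phospholipase C, had isoforms that differed in opposite directions, with Itpr1 lower and Itpr3 higher in old. Itpr1 (ENSRNOG00000007104), the isoform usually described as the main one of smooth muscle, had 174, 247 and 454 CPM in young replicates 1, 2 and 3 and 110, 78.8 and 168 CPM in old replicates 1, 2 and 3. The old libraries lay below the young ones, but the highest old value was close to the lowest young value, and young replicate 3 was far above the other young libraries. The young mean was 292 ± 145 CPM and the old mean 119 ± 45.5 CPM (SD, n = 3 each). Old relative to young was thus at -1.30 on the log2 scale, with a standard error of 0.42 (edgeR adjusted p = 0.161, DESeq2 adjusted p = 0.0225). Without young replicate 3 the log2 fold change of Itpr1 was -0.83 (adjusted p = 0.318 from edgeR), and DESeq2 called it only without young replicate 1 or without old replicate 3 of the 6 libraries left out in turn.

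Itpr3 (ENSRNOG00000052795) had 51.9, 45.1 and 40.7 CPM in the young libraries and 102, 85.1 and 101 CPM in the old libraries. All old libraries were well above all young ones, and the spread within each age group was small beside the gap. The young mean was 45.9 ± 5.65 CPM and the old mean 96.0 ± 9.46 CPM (SD, n = 3 each), and the log2 fold change was 1.06 ± 0.13 (standard error; 95% interval 0.75 to 1.37). The adjusted p was 0.0531 from edgeR, 0.0524 from limma-voom and 2.1e-09 from DESeq2. Whichever library was left out, the estimate for Itpr3 stayed between 0.98 and 1.16. edgeR called Itpr3 without old replicate 1 (adjusted p = 0.0289), where 732 genes of the table were called in place of 1, and DESeq2 lost it without young replicate 3, where the fold change fell under the threshold.

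Itpr2 (ENSRNOG00000001804), the third IP3 receptor, had 27.2, 29.7 and 23.1 CPM in young and 31.9, 44.3 and 34.2 CPM in old libraries. Its old libraries lay above the young ones by a narrow margin, with a log2 fold change of 0.46 (95% interval 0.07 to 0.85, adjusted p = 0.175 from edgeR). Among the counts of the 3 receptors, the share of Itpr1 was 68.8%, 76.8% and 87.7% in young and 45.1%, 37.8% and 55.4% in old libraries. The share of Itpr3 went from 14.1% ± 6.31 to 38.7% ± 4.69 (SD, n = 3 each). The shares of both isoforms did not overlap between the age groups, whereas the summed level of the 3 receptors did overlap, at 254 to 518 CPM in young and 208 to 304 CPM in old. These shares were computed after the values had been seen, are not scaled to length and were not tested. Ryr1, the ryanodine receptor of skeletal muscle, was at the lower end of detection with 9 to 66 counts per library and a log2 fold change of 0.25 (95% interval -1.78 to 2.28).

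**Figure D3:**
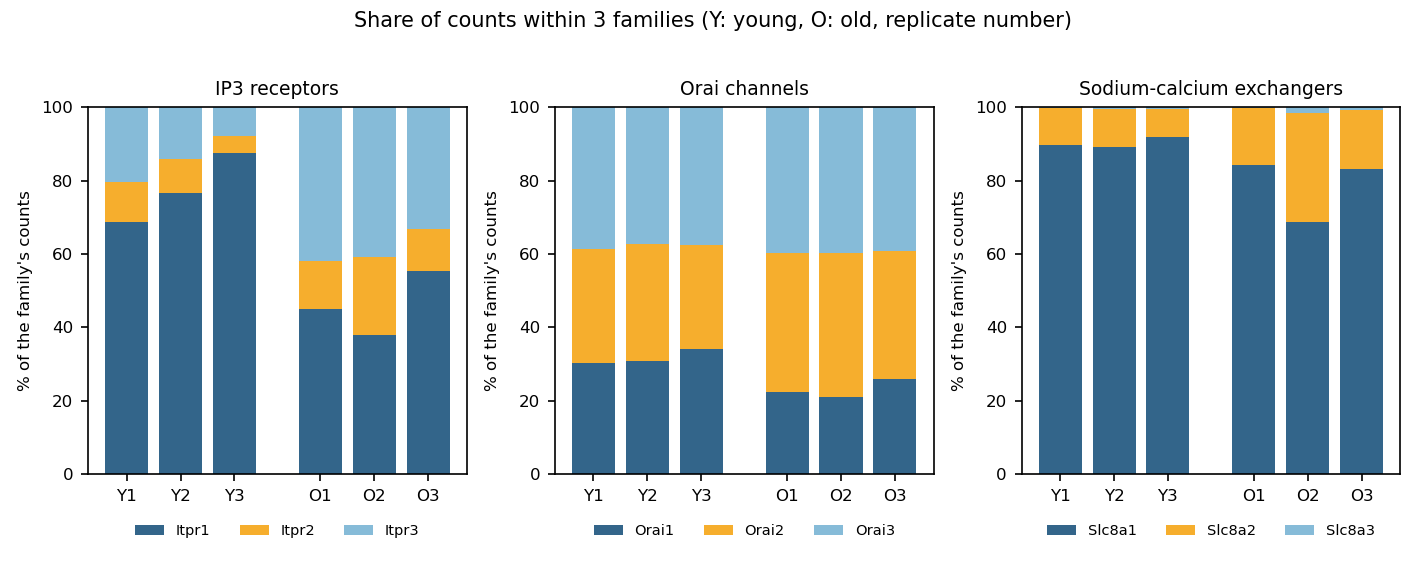
Stacked bars of the share of counts (percent) that each isoform took within its family in each library, for the IP3 receptors, the Orai channels and the sodium-calcium exchangers. Itpr1 takes 68.8% to 87.7% of the IP3 receptor counts in young and 37.8% to 55.4% in old libraries, and the shifts in the other families shown are smaller. Other families are not drawn. Among them, Casq2 took 63.1% to 91.5% of the calsequestrin counts in young and 34.3% to 63.2% in old libraries.

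Promoter windows of Itpr1 and Itpr3 are shown because these receptors of the same function went in opposite directions. The windows run from 250 bases before to 50 bases after the RefSeq start of each gene in the build GRCr8, 5′ to 3′, at chr4:142743190-142743489, plus strand and chr20:5138562-5138861, plus strand. Other start sites of these genes were not analysed here. They were searched on both strands for the CArG box, which binds serum response factor, for the MEF2 site and for the MCAT motif CATTCC, which binds TEAD factors, and a match would be in capitals. Neither window held a match.
Itpr1: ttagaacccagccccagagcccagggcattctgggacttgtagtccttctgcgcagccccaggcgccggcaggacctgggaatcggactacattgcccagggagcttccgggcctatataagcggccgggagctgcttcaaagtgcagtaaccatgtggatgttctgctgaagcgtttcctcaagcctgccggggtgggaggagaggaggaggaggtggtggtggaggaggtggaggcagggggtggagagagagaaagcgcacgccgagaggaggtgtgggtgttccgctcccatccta
Itpr3: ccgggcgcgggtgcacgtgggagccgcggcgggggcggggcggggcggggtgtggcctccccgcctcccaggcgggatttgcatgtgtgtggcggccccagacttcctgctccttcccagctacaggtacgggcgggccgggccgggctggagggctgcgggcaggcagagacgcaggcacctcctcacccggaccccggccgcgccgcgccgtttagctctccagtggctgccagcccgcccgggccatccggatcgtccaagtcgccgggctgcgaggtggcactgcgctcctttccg
The windows differed in base composition, with 62.0% G and C in Itpr1 and 76.0% in Itpr3, compared with a median of 68.0% over the windows of the calcium genes and 51.7% over all 33469 windows. A CArG box was present in 1.64% of all windows, a MEF2 site in 3.29% and the MCAT motif in 14.2%. The table of windows held 44 of the 54 genes, and of these 0 had a CArG box, 1 had a MEF2 site (Casq2) and 3 had the MCAT motif (Cacna1c, Pkd2 and Trpc2). A match describes letters and does not show that a factor binds.

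The largest change by fold among the 54 genes was that of Casq2 (ENSRNOG00000016243), which encodes the cardiac and slow-muscle calsequestrin that binds calcium in the lumen of the store. Casq2 had 316, 1547 and 1392 counts in young replicates 1, 2 and 3 and 112, 98 and 146 counts in old replicates 1, 2 and 3. On the CPM scale this was 7.0, 25.7 and 28.3 in young and 2.25, 1.89 and 2.72 in old. All old libraries were below all young ones, and young replicate 1 was nearer to the old libraries than to the other young libraries. Old relative to young was at -3.15 ± 0.54 on the log2 scale (standard error; 95% interval -4.45 to -1.86), with an adjusted p of 0.0636 from edgeR, 0.124 from limma-voom and 5.36e-08 from DESeq2. DESeq2 called Casq2 with any of the 6 libraries left out, and edgeR called it without young replicate 1 (log2 fold change -3.56, adjusted p = 0.0339).

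The promoter window of Casq2 is shown because it was the only one of the 44 genes with a MEF2 site in its window, a sequence bound by MEF2 factors of muscle. The window lies at chr2:192214306-192214605, plus strand of GRCr8, and the capitals mark the MEF2 site, from 149 to 140 bases before the RefSeq start.
Casq2: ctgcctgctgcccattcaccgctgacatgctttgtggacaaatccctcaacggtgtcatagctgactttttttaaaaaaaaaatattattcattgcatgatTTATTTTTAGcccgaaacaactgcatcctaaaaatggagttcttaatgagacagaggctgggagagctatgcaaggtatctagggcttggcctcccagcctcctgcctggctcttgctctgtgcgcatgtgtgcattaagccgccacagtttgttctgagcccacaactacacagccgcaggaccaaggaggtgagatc
The MEF2 site was found by its letters, as in 3.29% of all windows.

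Casq1, the calsequestrin of fast skeletal muscle, had 4.10, 3.18 and 2.65 CPM in young and 4.32, 3.14 and 1.59 CPM in old libraries. The groups overlapped and its log2 fold change was -0.13 (95% interval -1.08 to 0.81). Skeletal muscle genes were examined beside Casq2 because the SFA lies next to the soleus muscle. Of 29 marker genes of skeletal muscle, 11 were in the table, 9 lower and 2 higher in old (Tnnt3 and Neb). The 11 summed to 182 to 397 CPM in young and 43.9 to 79.2 CPM in old libraries. Acta1, Myh1 and Myh2 made up most of the sum in young, with means of 156, 95.2 and 39.7 CPM. Their means in old were 13.7, 11.9 and 4.59 CPM, while Tnnt3 averaged 10.7 CPM in young and 20.2 CPM in old. DESeq2 called 3 of the 11 as lower, Acta1, Myh1 and Myh2, compared with 3.38% of all genes tested. The call of Myh1 was lost without any young library or without old replicate 1. That of Myh2 was lost without young replicate 1 or 3 or old replicate 1, and that of Acta1 with no library left out. The other genes that were lower each had a 95% interval that included 0. The defining markers Myod1, Myog, Pax7, Ckm, Mylpf and Tnnc2 were not in the table by symbol. The summed level of 18 smooth muscle markers was also lower in old, at 20903 to 34772 CPM in young and 7529 to 11468 CPM in old. Of these, 18 of 18 were lower, compared with 6941 of all 14475 genes. DESeq2 called 13 of the 18 as lower, compared with 3.38% of all genes tested, and edgeR called 0. The groups were separate for 16, all lower, compared with 14.7% of all genes. In young replicates 1, 2 and 3 the smooth muscle sum was 20903, 28070 and 34772 CPM, which is the same order as that of Casq2 and of Itpr1. The summed skeletal muscle markers had this order too, at 182, 349 and 397 CPM. In old replicates 1, 2 and 3 the smooth muscle sum was 11468, 7946 and 7529 CPM. Casq2 and Itpr1 did not follow that order and were highest in old replicate 3. The skeletal muscle sum was also highest there, at 43.9, 53.5 and 79.2 CPM in old replicates 1, 2 and 3. Casq2 and Itpr1 were lowest in old replicate 2, and the skeletal muscle sum in old replicate 1. The part of these markers in the differences of Casq2 and Itpr1 was not tested. Endothelial markers summed to 36.1 to 45.4 CPM in young and 33.0 to 44.4 CPM in old (7 of 12 in the table, Cdh5 and Cldn5 not among them), macrophage markers to 5.35 to 16.6 and 10.9 to 17.2 CPM (4 of 12, Ptprc not among them), and Schwann cell and neuron markers to 127 to 161 and 115 to 181 CPM (7 of 12, Sox10 not among them). Fibroblast markers (11 of 12 in the table) summed to 1036 to 1556 CPM in young and 1943 to 2884 CPM in old libraries. Of these 11 genes 9 were higher and 2 lower in old (Gsn and Mfap5), and edgeR called 0. The groups were separate for 4, all higher, compared with 14.5% of all genes. DESeq2 called 3 as higher, Col14a1, Clec3b and Dcn, compared with 2.30% of all genes tested. The call of Dcn was lost without young replicate 2 or 3 or old replicate 2 or 3.

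Among the proteins that remove calcium, Slc8a1 (ENSRNOG00000008479), the sodium-calcium exchanger NCX1, was lower in old VSM cells. It had 105, 107 and 117 CPM in young and 67.3, 29.2 and 64.7 CPM in old libraries. The young libraries lay close together, all old libraries lay below them, and old replicate 2 was the lowest. Old relative to young was at -1.03 ± 0.31 on the log2 scale (standard error; 95% interval -1.76 to -0.29, adjusted p = 0.141 from edgeR and 0.0202 from DESeq2). Without old replicate 2 the log2 fold change was -0.73 and DESeq2 did not call it, nor without any young library, where the value stayed between -1.06 and -0.97. Slc8a2 had 11.4 ± 1.30 and 12.5 ± 0.237 CPM (SD, n = 3 each) and Slc8a3 stayed under 1 CPM in each library, with log2 fold changes of 0.14 and 0.18. Slc8a1 took 89.2% to 91.8% of the exchanger counts in young and 68.6% to 84.4% in old libraries.

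Atp2a2, the SERCA2 pump that refills the store, had 525, 465 and 434 CPM in young and 379, 381 and 283 CPM in old libraries. The groups did not overlap, and its log2 fold change was -0.45 (95% interval -0.82 to -0.08, adjusted p = 0.173 from edgeR and 0.0640 from DESeq2). Atp2a3, the SERCA3 pump, was near the lower end of detection with 10 to 71 counts per library and a log2 fold change of 1.2 (95% interval -0.02 to 2.43). The plasma membrane pumps did not differ beyond their spread. Atp2b1 had 73.0 ± 12 and 80.7 ± 15.7 CPM (SD, n = 3 each), and Atp2b4 had 22.4, 24.0 and 45.3 CPM in young and 25.2, 16.5 and 17.6 CPM in old libraries, so that its log2 fold change of -0.63 became -0.23 without young replicate 3. Atp2c1, a calcium pump of the Golgi, had a log2 fold change of -0.16 (95% interval -0.41 to 0.09). Of the 8 pumps and exchangers 4 were lower and 4 were higher in old, and DESeq2 called 1.

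**Figure D4:**
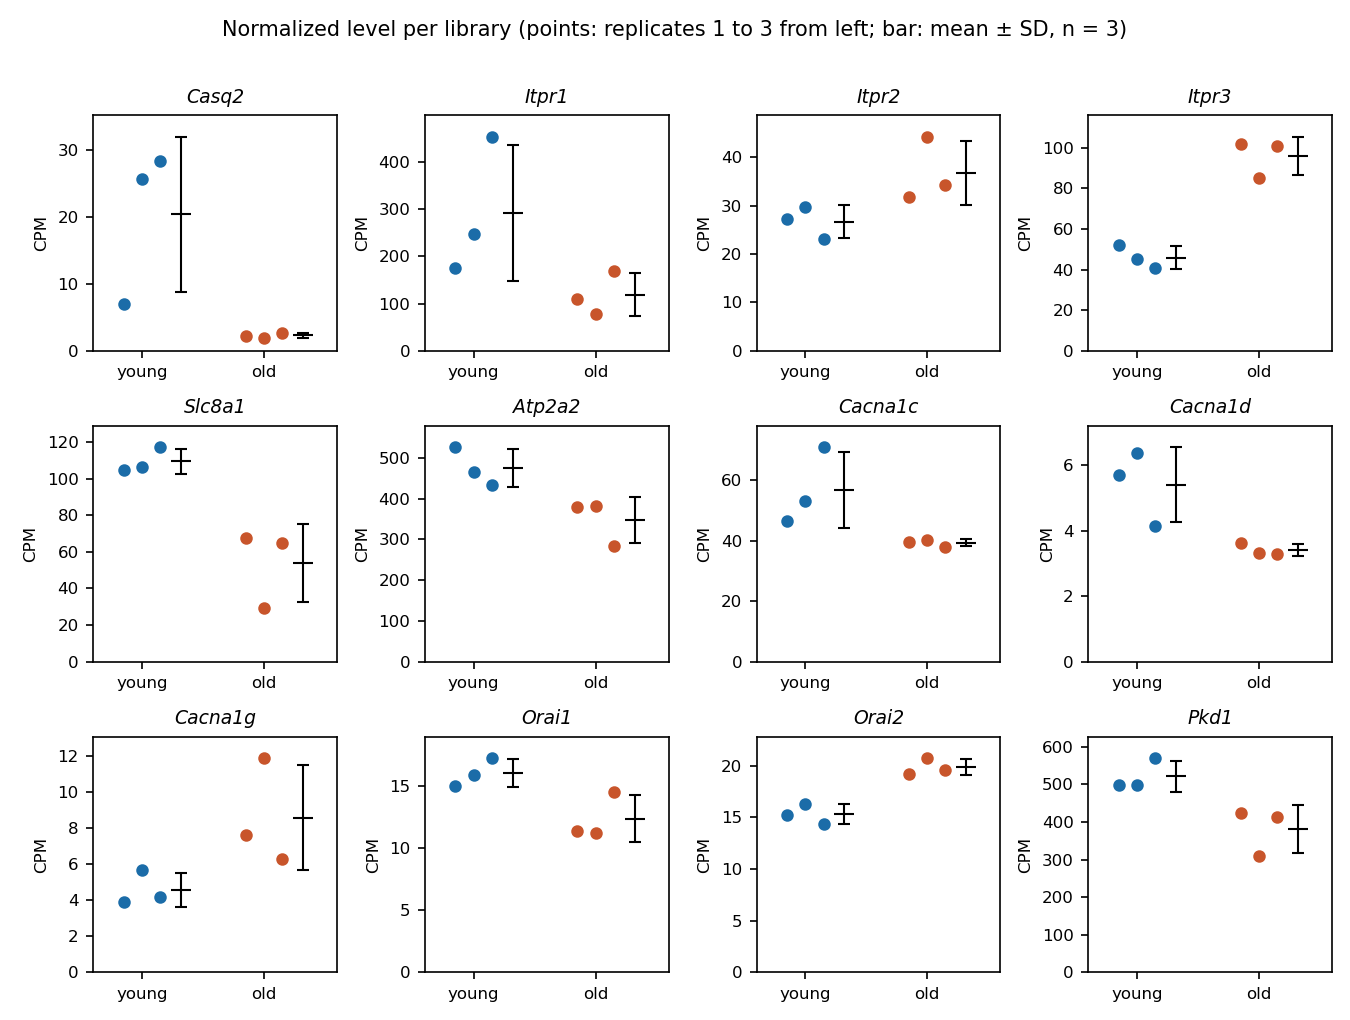
Level in CPM of 12 calcium-handling genes in each library, with young in blue and old in orange, replicates 1 to 3 from left to right and the mean ± SD (n = 3) beside the points. All 12 are among the 17 of the 54 genes with separate age groups, so the lack of overlap comes with their choice. Of the 54 genes, 10 were separate and lower in old (18.5%, compared with 14.7% of all genes). Another 7 were separate and higher (compared with 14.5% of all genes). The gap is wide for Itpr3 and narrow for Itpr1, Itpr2, Cacna1g and Orai1.

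Of the 7 pore-forming subunits of voltage-gated channels 3 were lower and 4 higher in old, and DESeq2 called 0. Cacna1c (ENSRNOG00000007090), the L-type channel Cav1.2 through which calcium enters on depolarization, had 46.3, 53.1 and 70.8 CPM in young and 39.6, 40.2 and 38.0 CPM in old libraries. The old libraries were nearly equal and lay below the young ones, which were spread and led by replicate 3. Old relative to young was at -0.53 ± 0.16 on the log2 scale (standard error; 95% interval -0.92 to -0.14, adjusted p = 0.145 from edgeR and 0.0537 from DESeq2). Cacna1d, the other L-type subunit in the table, had 5.69, 6.38 and 4.15 CPM in young and 3.62, 3.31 and 3.28 CPM in old. It also did not overlap, with a log2 fold change of -0.67 (adjusted p = 0.156 from edgeR and 0.0368 from DESeq2). Cacna1c and Cacna1d together gave 62.1 ± 11.7 CPM in young and 42.7 ± 1.21 CPM in old (SD, n = 3 each).

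The T-type subunit Cacna1g went the other way, with 3.92, 5.67 and 4.15 CPM in young and 7.60, 11.9 and 6.27 CPM in old libraries. Its old libraries lay above the young ones, with a log2 fold change of 0.90 (95% interval 0.21 to 1.6, adjusted p = 0.156 from edgeR and 0.0420 from DESeq2). Without old replicate 2 its log2 fold change was 0.59. Cacna1h, another T-type subunit, had 10, 10 and 52 counts in young and 6, 16 and 4 counts in old libraries, and its log2 fold change of -1.50 became -0.20 without young replicate 3. Cacna1a, Cacna1b and Cacna1i, which encode channels best known from neurons, had log2 fold changes of 0.54, 0.17 and 0.54, and their age groups overlapped.

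Of the 8 auxiliary subunits, which set the trafficking and gating of the pores, 3 were lower and 5 higher in old and DESeq2 called 0. Cacna2d1, the α2δ1 subunit, had 49.5, 48.8 and 52.7 CPM in young and 56.6, 58.8 and 60.9 CPM in old. The libraries of each age group were tight and did not overlap, but the difference was small, at 0.22 ± 0.08 on the log2 scale (standard error; edgeR adjusted p = 0.182). Cacnb3 and Cacnb2, β subunits of VSM cells, had log2 fold changes of 0.21 (95% interval -0.37 to 0.78) and -0.73 (95% interval -1.62 to 0.17). Cacnb4 was carried by 1 library, with 22, 28 and 41 counts in young and 39, 52 and 222 counts in old libraries, and its log2 fold change of 1.73 became 0.58 without old replicate 3. The other subunits, Cacnb1, Cacna2d2, Cacna2d4 and Cacng7, had log2 fold changes between -1.14 and 0.09, each with an interval that included 0. The lowest value was that of Cacng7, with 2, 14 and 70 counts in young and 8, 10 and 22 counts in old libraries, and it became 0.82 without young replicate 3.

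Store-operated entry, in which STIM proteins sense an empty store and open Orai channels, had its Orai isoforms at small differences of both signs. Orai1, the main pore of this entry, had 15.0, 15.8 and 17.2 CPM in young and 11.3, 11.2 and 14.5 CPM in old libraries, with a log2 fold change of -0.38 (95% interval -0.72 to -0.03, adjusted p = 0.197 from edgeR and 0.126 from DESeq2). Orai2 had 15.3, 16.3 and 14.3 CPM in young and 19.2, 20.7 and 19.6 CPM in old, which is 0.37 on the log2 scale (95% interval 0.14 to 0.61, adjusted p = 0.118 from edgeR and 0.0159 from DESeq2). Neither gene overlapped between the age groups, though the margin of Orai1 was narrow. Both were below the fold threshold, and Orai1 also missed the adjusted p in both tests. Orai3 had 19 ± 0.072 CPM in young and 21.0 ± 0.923 CPM in old (SD, n = 3 each), or 0.15 on the log2 scale. The share of Orai1 among the Orai counts was 30.4% to 34.1% in young and 21.1% to 25.9% in old, while the summed level of the 3 channels was 50.3 ± 0.915 and 53.2 ± 2.71 CPM (SD, n = 3 each). The sensors Stim1 and Stim2 had log2 fold changes of 0.13 (95% interval -0.15 to 0.41) and 0.08 (95% interval -0.24 to 0.39).

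Of the 11 TRP channels 4 were lower and 7 higher in old, and DESeq2 called 0. Trpm7, a channel with a kinase domain that also carries magnesium, had 155, 151 and 152 CPM in young and 166, 188 and 194 CPM in old libraries. Its groups did not overlap, with a log2 fold change of 0.26 (95% interval 0.03 to 0.49, adjusted p = 0.187 from edgeR). Trpm4, which depolarizes VSM cells during pressure-induced constriction, had 26.7 ± 2.61 and 27.2 ± 4.23 CPM (SD, n = 3 each), and the interval of its log2 fold change ran from -0.31 to 0.37. Trpv2, described as stretch-activated, had 108 ± 21.2 and 104 ± 19.7 CPM (interval -0.51 to 0.40), and the sign of its difference changed with the library left out. Trpc1 had a log2 fold change of -0.35 (interval -0.84 to 0.15) and Trpv4 one of 0.47 (interval -0.32 to 1.25). Trpm3 had 50, 38 and 44 counts in young and 134, 168 and 45 counts in old libraries, so old replicate 3 lay among the young ones, and its log2 fold change was 1.36 (edgeR adjusted p = 0.204) over the 6 libraries, against 1.76 without old replicate 3. Trpc2, Trpm1, Trpm6, Trpm8 and Trpv1 averaged under 3 CPM in both age groups, and the interval of each included 0. Trpc4ap, which is not a channel, had 145 ± 6.76 and 154 ± 3.35 CPM (SD, n = 3 each).

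The mechanosensitive and polycystin channels were all lower in old on average, by small amounts. Pkd1, which encodes the large membrane protein polycystin-1, had 498, 499 and 570 CPM in young and 423, 309 and 414 CPM in old libraries. Its groups did not overlap, with a log2 fold change of -0.45 (95% interval -0.82 to -0.08, adjusted p = 0.171 from edgeR and 0.0646 from DESeq2). Pkd2, its channel partner, had 268, 276 and 292 CPM in young and 211, 223 and 251 CPM in old, also without overlap (log2 fold change -0.29, adjusted p = 0.188 from edgeR). Piezo1, a stretch-gated channel, had 286, 273 and 328 CPM in young and 259, 274 and 287 CPM in old libraries. The Piezo1 values overlapped, and the interval of its log2 fold change, -0.38 to 0.15, did not include a change of 1 in either direction. Piezo2 was more variable, at 67.4 ± 8.94 and 57.1 ± 24.5 CPM (SD, n = 3 each, interval -0.97 to 0.50).

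The CaMKII genes, whose kinase responds to calcium and calmodulin, were each lower in old on average. Camk2d and Camk2g, the isoforms of VSM cells, had log2 fold changes of -0.13 (95% interval -0.48 to 0.22) and -0.43 (95% interval -0.97 to 0.11), and their groups overlapped. Camk2b had 48, 97 and 82 counts in young and 22, 27 and 55 counts in old libraries, a log2 fold change of -1.12 (adjusted p = 0.186 from edgeR and 0.0945 from DESeq2). Camk2a averaged under 1 CPM in both groups.

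Genes that work with these channels and stores were taken from 7 textbook lists, of which edgeR called 0 genes. In the list of Gq proteins, phospholipase C and protein kinase C, which lies upstream of the IP3 receptors, 16 of 18 genes were in the table. Of these, 10 were lower and 6 higher. DESeq2 called 2 of the 16 in each direction, compared with 3.38% of all genes tested as lower and 2.30% as higher. Plcb4 had 72.5, 99.0 and 189 CPM in young and 43.8, 53.6 and 59.3 CPM in old (log2 fold change -1.20, adjusted p = 0.137 from edgeR), and Plcg2 had a log2 fold change of -1.49 (adjusted p = 0.116 from edgeR). Plcb1 had 4.85, 1.93 and 4.25 CPM in young and 11.1, 11.8 and 13 CPM in old (log2 fold change 1.70, adjusted p = 0.0762 from edgeR), and Plce1 had a log2 fold change of 1.76 (adjusted p = 0.10 from edgeR). These 4 genes are shown because DESeq2 called them. Over the whole list the age groups were separate for 4 lower and 2 higher genes of 16, beside 14.7% and 14.5% of all genes. The log2 fold change of Plcb4 was -0.72 without young replicate 3, and its DESeq2 call was lost there and without old replicate 2, while that of Plcg2 was lost without young replicate 2 or 3.

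Of 23 genes of calmodulin, calcineurin, NFAT and calmodulin-dependent kinases, 19 were in the table, 9 lower and 10 higher. DESeq2 called 1 of the 19, as lower, compared with 3.38% of all genes tested. This was Mylk, the myosin light chain kinase, at 65.9, 45.4 and 203 CPM in young and 35.0, 22.0 and 14.1 CPM in old (log2 fold change -2.15, adjusted p = 0.137 from edgeR), whose log2 fold change was -1.23 without young replicate 3. Of 21 store lumen buffers and regulators of leak or store-operated entry, 21 were in the table, 16 lower and 5 higher. DESeq2 called 2 of the 21 as lower, compared with 3.38% of all genes tested. Cracr2a, which regulates Orai channels, had 1.26, 1.66 and 1.65 CPM in young and 0.322, 0.0770 and 0.299 CPM in old (log2 fold change -2.70, adjusted p = 0.0731 from edgeR), and Cracr2b had a log2 fold change of -1.11 (adjusted p = 0.119 from edgeR), with its DESeq2 call lost without young replicate 1 or 2 or old replicate 2. DESeq2 called 0 of 13 triad and junction proteins, 0 of 11 genes of mitochondrial calcium transport, 0 of 14 annexins and S100 proteins and 0 of 2 calcium-dependent chloride and potassium channels. The median log2 fold changes of these lists lay between -0.25 and 0.06, beside 0.02 for all genes.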

How the data were processed

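Libraries of cultured SFA VSM cells, 3 per age group (4 and 24 months), were sequenced, and the authors deposited raw gene counts, whole numbers without normalization. Per the submitters' processing notes, reads were trimmed with Trim Galore 0.6.7 (Cutadapt 3.5), aligned to Rnor 6.0 with STAR 2.7.10b and counted with featureCounts (Subread 2.0.8). How strand and multi-mapped reads were counted is not stated in these sources, and genes with overlapping neighbors or close paralogs are therefore uncertain. Of the counts from 1 to 19, 68.7% to 71.1% per library were even. The read depth per sample that the study states is below the 44235674 to 59700887 counts on genes per library. Whether mates were counted separately was not tested.

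Under R 4.3.3, edgeR 4.0.16 was fitted to all genes (TMM, quasi-likelihood F test, age alone, Benjamini-Hochberg adjustment over 14475 genes). Standard errors are fold change (log2, absolute) over root F. DESeq2 1.42.0 (Wald test, no adjusted p for 292 genes) and voom of limma 3.58.1 served as alternatives. All were run on simulated data with planted changes larger than those of most of the 54 genes. Such runs cannot show which of the differing sets of calls is right here. Genes were named by a fixed rule: each of the 54 by role, in full where edgeR or DESeq2 called it, with a textbook roster, others with separate groups at an unadjusted p under 0.05, and called genes of 7 pathway lists. The members, lists and rule were chosen with earlier results of these data known. The labels do not say whether cultures shared a preparation day. Promoter sequences came from RefSeq (GRCr8), and gene coordinates of Rnor 6.0 were not used here.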

Additional observations from a re-analysis of the deposited data

How the results depend on the processing

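edgeR called 0 of the 54 genes with TMM and also with RLE size factors, library size only, edgeR's own filter, counts divided by 2 and no fold threshold. limma-voom, a separate test, also called 0. edgeR called 1 (Itpr3, adjusted p = 0.0494) when genes needed at least 1 CPM in 3 libraries and 2 (Itpr3 and Casq2) at an adjusted p under 0.1. DESeq2 called 4, and 7 with no fold threshold, an alternative chosen after seeing the data. With each library left out, edgeR called between 0 and 1 and DESeq2 between 2 and 7. Over the same 6 omissions the genes at an unadjusted edgeR p under 0.05, 18 with all libraries, numbered 8 to 17, with 9, 9, 11 and 8 without young replicate 1, 2 or 3 or old replicate 2. The genes with separate groups, 17 with all libraries, numbered 19 to 30, since fewer libraries separate more easily, and the median log2 fold change of the 54 genes lay between -0.0710 and 0.0932. The fold changes of 26 genes (the called and the textbook ones) were recomputed under the settings that give a fold change per gene, and their directions turned only with a library left out. Trpv2 was at 0.11 without young replicate 1, 0.0436 without old replicate 2 and 0.00215 without old replicate 3 (range -0.22 to 0.11). Trpm4 was at -0.0464 without young replicate 3 and -0.11 without old replicate 1 (highest 0.10), Atp2b1 at -0.0257 without old replicate 1 (highest 0.28) and Cacnb3 at -0.0231 without old replicate 2 (highest 0.35). Of all 54 genes, 15 took both signs over the 6 omissions, these 4 and Cacna1b, Cacnb1, Cacng7, Casq1, Piezo2, Ryr1, Slc8a3, Stim2, Trpc2, Trpm1 and Trpm6, each with overlapping groups. The cause of these changes was not tested. With the replicate number as a block edgeR called 0 of the 54 genes and 17 had an unadjusted p under 0.05. Deviations of same-numbered young and old libraries correlated at 0.06, 0.31 and 0.29 across genes. Those of libraries with different numbers correlated between -0.45 (young replicate 3, old replicate 2) and 0.34 (young replicate 1, old replicate 2). The numbers were not taken as pairs. Members under 1 CPM rest on few counts, and a difference there was not detectable below the width of their intervals.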
